A study of Mus musculus with 113 samples.

Results

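The comparison was between Fyn knockout and wild-type mouse embryonic stem cells after 4 days of neural induction. It was made up of the 3 libraries labelled Fyn-KO and the 3 labelled Wild type at induction day 4, which are 6 of the 113 samples of the series. All were E14 cells, a male mouse embryonic stem cell line, and total RNA was sequenced from each culture as a whole. The knockout (KO) was a single clone made with Cas9 and a pair of guides that removed a stretch of Fyn with its start codon, so the KO libraries describe that clone, and no second clone was analysed here. The labels describe an adherent and a suspension induction protocol together and do not say which was used for the E14 cells. The 6 day 0 libraries of the same KO and wild-type (WT) cells, taken before induction, were used to see which differences were already there. The labels do not say whether replicates were separate cultures, so the p-values measure only the spread between these libraries. The question was which genes, pathways and lineage markers differed between KO and WT on day 4.

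Fyn is a Src family tyrosine kinase, a membrane-bound enzyme that passes signals from adhesion molecules and receptors to the cytoskeleton and is abundant in the developing brain. Mouse embryonic stem cells taken out of self-renewing conditions first lose naive pluripotency genes, then pass through an epiblast-like state marked by Fgf5, and then switch on Sox1, the earliest gene restricted to the neural plate. Notch ligands, retinoic acid, Wnt, BMP and FGF signals all act on that last step.

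Gene levels were in FPKM (sequenced fragments scaled to transcript length and to the number of mapped reads), and differences were taken on log2(FPKM + 1), KO minus WT, which understates the change of weakly expressed genes. Of 23107 genes in the table, 12257 had an FPKM of at least 1 in at least 3 of the 12 E14 libraries and were tested. The libraries detected between 15666 and 16474 genes above 0 on day 4. The read depth behind the FPKM values is unknown, so no counting error can be given. Correlations over the tested genes of log2(FPKM + 1) were 0.942 to 0.965 among the WT libraries, 0.964 to 0.970 among the KO libraries and 0.925 to 0.976 across genotypes, so some WT libraries were closer to a KO library than to each other. Genes of the pluripotent state were abundant in all 6 libraries. The mesoderm markers T, Mixl1, Mesp1, Tbx6 and Kdr summed to 0.653 to 0.928 FPKM on day 4, while the wider mesoderm list of 25 genes summed to 19.8, 53.3 and 72.0 FPKM in WT and 27.4, 36.0 and 32.6 FPKM in the KO. Of 6 fibroblast markers Col3a1, Lum and Postn were at or near 0 in every library, Thy1 was at 2.61 to 7.23 FPKM on day 4, and the 6 together summed to 3.23 to 10.4 FPKM, highest in WT library 1. Neural progenitor markers were uneven among the WT libraries, as given below. In bulk RNA, fewer cells of a type and less RNA per cell cannot be told apart.

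The WT libraries also stood apart from the KO libraries, and from each other, by chromosome. Genes were placed on chromosomes with the RefSeq annotation of GRCm38.p6, which matched 12203 of the tested genes, and this grouping was chosen after the values were seen. On chromosome 8 the median difference of 655 genes was -0.40 on day 4 and -0.32 on day 0, and 89.0% of the genes were lower in the KO on day 4. Chromosome 6 had a median of -0.28, chromosome 1 of -0.26 and chromosome 14 of -0.23, with day 0 medians of -0.24, -0.24 and -0.22. The other autosomes and the X chromosome had day 4 medians between -0.05 and 0.06. The 6 Y-linked genes tested were higher in all 3 KO libraries than in all 3 WT libraries, with a median difference of 1.88, or 1.09 without WT library 1.

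**Figure D1:**
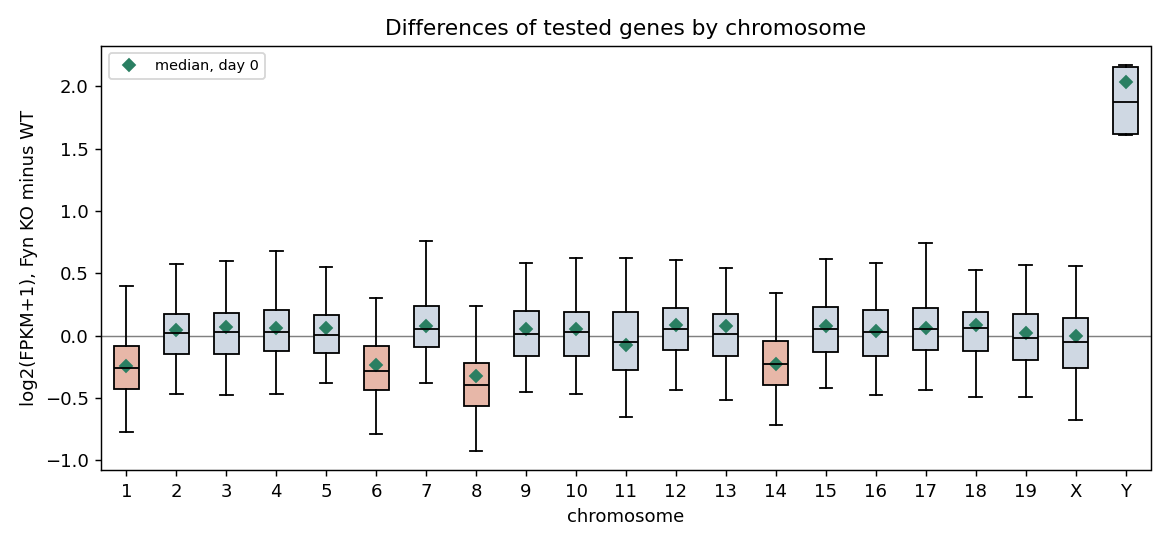
Log2(FPKM + 1) differences (vertical axis, Fyn KO minus WT at day 4) of the tested genes on each chromosome (horizontal axis). Boxes span the quartiles with the median as a line, whiskers reach the 5th and 95th percentiles, diamonds are the day 0 medians, and the shaded boxes are chromosomes 1, 6, 8 and 14. The medians of those chromosomes lie between -0.23 and -0.40, the other autosomes near 0 and the Y chromosome at 1.88.

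The level of each chromosome in each library was taken as the median, over genes with a mean of at least 5 FPKM, of log2(FPKM + 1) relative to the mean of the same day. For chromosome 8 it was 0.25, 0.22 and 0.15 in WT libraries 1, 2 and 3 on day 4 and -0.23, -0.21 and -0.18 in the KO libraries, so the genotypes did not overlap. For chromosome 1 it was 0.30 and 0.28 in WT libraries 1 and 2 but -0.22 in WT library 3, below the KO range of -0.14 to -0.06. Chromosome 14 showed the same order, at 0.31, 0.16 and -0.16 in WT against -0.11 to -0.09 in the KO. Chromosome 6 was at -0.08 in WT library 1 and at 0.27 and 0.19 in WT libraries 2 and 3, against -0.14 to -0.12 in the KO. The same WT library numbers stood apart on day 0, when chromosome 1 was at 0.28, 0.26 and -0.16 and chromosome 6 at -0.08, 0.19 and 0.30. On chromosome 11 neighboring stretches differed in sign. Genes between 50225335 and 60420479 had a median difference of 0.25, and the 4 successive blocks of genes from 70000592 to 103412705 had medians of -0.21 to -0.29, each block holding 71 or 72 genes. The genes of chromosome 8 were lower along its whole length, with medians of -0.38 to -0.47 in each of 10 successive blocks of genes. What these chromosome-wide differences contribute to the results below was not tested, except where a value with the chromosome medians removed is given.

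**Figure D2:**
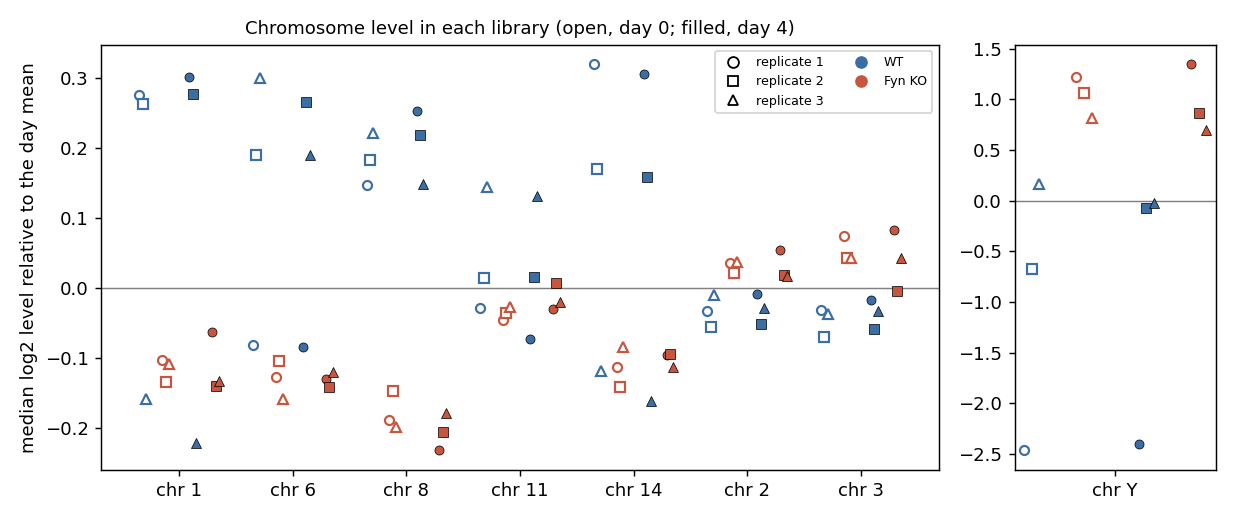
Median log2 level of each chromosome relative to the mean of its day (vertical axis) in each of the 12 E14 libraries, for chromosomes 1, 6, 8, 11 and 14, with chromosomes 2 and 3 for comparison and the Y chromosome on its own scale; open symbols are day 0, filled symbols day 4, blue is WT, red is Fyn KO and shape marks the replicate number. On chromosome 8 all WT libraries lie at 0.15 or above, and on chromosomes 1 and 14 WT library 3 lies apart from WT libraries 1 and 2 on both days.

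The Y-linked genes showed how far the WT libraries differed. Ddx3y, an RNA helicase gene, was at 0.40, 8.35 and 8.20 FPKM in WT libraries 1, 2 and 3 and at 18.0, 12.9 and 12 FPKM in the KO libraries. Eif2s3y, a translation initiation factor gene, was at 1.31, 19.5 and 25.6 FPKM in WT against 60.8, 47.5 and 37.3 FPKM in the KO. WT library 1 was lowest for all 6 of these genes on day 4. On day 0 the WT values of Ddx3y were 0.844, 6.60 and 15 FPKM, with library 1 again lowest. Zfy1 was among the genes that passed the test below.

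Across the 12257 genes, 9 differed between KO and WT on day 4 at an adjusted p below 0.05 (limma with Benjamini-Hochberg adjustment), which is 0.0734% of those tested. Of these, 8 were lower in the KO (0.0653%) and 1 was higher (0.00816%). Without adjustment, 526 genes were higher (4.29%) and 957 lower (7.81%) at p below 0.05. The KO and WT values did not overlap for 802 genes that were higher (6.54%) and 1224 that were lower (9.99%). Of these, 45 higher and 45 lower genes reached 1 FPKM in fewer than 3 libraries outside the day 4 group where they were high, so they entered the test only through that group. Pax6, Irx3, Cyp26a1, Foxa2 and Pax8, described below, are among them. Of the 1224, 51.9% lay on chromosomes 1, 6, 8 and 14, which hold 2325 of the 12203 placed genes.

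Fyn itself (chr10:39369743-39565381, GRCm38.p6) was at 9.44, 4.54 and 6.76 FPKM in the WT libraries and at 1.19, 1.13 and 1.58 FPKM in the KO libraries. Every KO value was below every WT value, and the difference was -1.74 ± 0.24 (SE, n = 3 against 3, limma adjusted p = 0.0193), or 5.33-fold on the mean FPKM. A gene-level FPKM also counts exons outside the deleted stretch. On day 0 Fyn was at 3.21, 2.74 and 4.00 FPKM in WT against 0.598, 0.598 and 1.10 FPKM in the KO, a difference of -1.29. The day 4 call for Fyn did not hold with the replicate number as a block (limma adjusted p = 0.0584), or without any single day 4 library other than WT library 2 (limma adjusted p of 0.0535 to 0.126), while the difference stayed between -1.83 and -1.52.

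The 7 other genes that were lower fell into neighbors and singletons. Mum1, which encodes a chromatin protein with a PWWP domain (Pwwp3a in RefSeq), lies at chr10:80226431-80245144, and Ndufs7, a core subunit of respiratory complex I, at chr10:80249105-80256794. Mum1 was at 11.5, 11.6 and 13.9 FPKM in WT and 3.04, 3.11 and 2.39 FPKM in the KO, a difference of -1.79 ± 0.17 (SE, n = 3 against 3, limma adjusted p = 0.00125). It was as much lower on day 0, at -1.77. Ndufs7 was at 73.6, 62.7 and 92.6 FPKM in WT and 24.7, 18.2 and 17.4 FPKM in the KO, a difference of -1.87 ± 0.18 (SE, n = 3 against 3, limma adjusted p = 0.00125). On day 0 Ndufs7 differed by -0.69, and the change in its difference between the days was -1.18 ± 0.25 (SE), which did not pass the test over all genes (limma adjusted p = 0.624). Fyn lies on the same chromosome, and none of the 3 nearest tested genes on either side of Fyn passed the test.

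Nit1, a nitrilase family amidase gene, and Pfdn2, which encodes subunit 2 of the prefoldin chaperone, overlap at their starts on chromosome 1 and are read in opposite directions. Nit1 was at 21.5, 17.4 and 17.9 FPKM in WT and 5.31, 5.21 and 6.80 FPKM in the KO, a difference of -1.56 ± 0.15 (SE, n = 3 against 3, limma adjusted p = 0.00125). Pfdn2 was at 233, 230 and 188 FPKM in WT and 95.5, 76.9 and 85.9 FPKM in the KO, a difference of -1.32 ± 0.14 (SE, n = 3 against 3, limma adjusted p = 0.00148). On day 0 the differences were -1.56 for Nit1 and -1.55 for Pfdn2. The neighboring Dedd, a death effector domain gene whose annotated span overlaps that of Nit1 by 1931 bases, was at 19, 23.4 and 19.2 FPKM in WT and 7.02, 8.74 and 9.53 FPKM in the KO without passing the test (limma adjusted p = 0.0661). Further along, Usp21 and Ufc1 were also lower in all 3 KO libraries, by -0.72 and -0.64 (limma adjusted p = 0.156 and 0.297). The library kit does not mark strand, so reads from the overlapping parts of Nit1, Pfdn2 and Dedd cannot be told apart. The spans of Nit1 and Pfdn2 share 703 bases, and those of Pfdn2 and the next gene, Klhdc9, share 806 bases.

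The start regions of Nit1 and Pfdn2 are shown because the genes moved together and share this sequence. Each runs from 250 bases before to 50 bases after a RefSeq start on GRCm38.p6, 5′ to 3′ on the strand of its own gene. Nit1 is on the minus strand at chr1:171345596-171345895 and Pfdn2 on the plus strand at chr1:171345425-171345724. Capitals mark the 129 bases, from 171345596 to 171345724, that both windows contain, each the reverse complement of the other.
Nit1: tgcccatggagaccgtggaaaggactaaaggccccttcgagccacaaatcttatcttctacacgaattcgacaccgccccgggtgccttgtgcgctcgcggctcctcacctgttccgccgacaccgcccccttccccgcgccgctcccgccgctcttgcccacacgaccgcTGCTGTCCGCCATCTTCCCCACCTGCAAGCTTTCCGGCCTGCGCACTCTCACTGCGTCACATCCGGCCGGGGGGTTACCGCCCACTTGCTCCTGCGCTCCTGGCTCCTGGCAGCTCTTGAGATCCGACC
Pfdn2: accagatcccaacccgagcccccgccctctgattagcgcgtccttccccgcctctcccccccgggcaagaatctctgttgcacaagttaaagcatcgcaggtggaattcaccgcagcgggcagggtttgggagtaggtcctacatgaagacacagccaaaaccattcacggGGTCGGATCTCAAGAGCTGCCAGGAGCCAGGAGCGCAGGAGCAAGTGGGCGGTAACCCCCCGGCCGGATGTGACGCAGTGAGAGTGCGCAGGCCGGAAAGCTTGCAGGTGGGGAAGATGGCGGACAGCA

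The remaining calls were single genes. Cox20, an assembly factor of cytochrome c oxidase on chromosome 1, was at 39.3, 23.7 and 37.6 FPKM in WT and 7.41, 7.44 and 10.7 FPKM in the KO, a difference of -1.84 ± 0.26 (SE, n = 3 against 3, limma adjusted p = 0.0229). Its span shares 1586 bases with that of Hnrnpu, which was at 301 to 386 FPKM in all 6 libraries. Prkaca, the catalytic subunit of protein kinase A, was at 44.0, 34.8 and 39.2 FPKM in WT and 17.6, 19.06 and 19.9 FPKM in the KO, a difference of -1.02 ± 0.13 (SE, n = 3 against 3, limma adjusted p = 0.00811). Pnpla6, a lysophospholipase known as neuropathy target esterase, was at 22.2, 21.8 and 21.5 FPKM in WT and 11, 12.1 and 12.6 FPKM in the KO, a difference of -0.83 ± 0.11 (SE, n = 3 against 3, limma adjusted p = 0.0193). Prkaca and Pnpla6 lie on chromosome 8. With the median of each autosome and of the X chromosome removed in each library, Prkaca, Pnpla6 and Cox20 differed by -0.60, -0.41 and -1.60 and no longer passed the test (limma adjusted p = 0.117, 0.217 and 0.0888), and Fyn, Mum1, Ndufs7, Nit1 and Pfdn2 still did. The Y chromosome, with 6 tested genes, was left as it was. With the replicate number as a block, Prkaca and Pnpla6 also did not pass (limma adjusted p = 0.0697 and 0.133). Zfy1, a Y-linked zinc finger gene with a near-identical copy in Zfy2 that makes its counts uncertain, was at 0.184, 1.05 and 0.927 FPKM in WT and 8.25, 11.8 and 10.1 FPKM in the KO, a difference of 2.71 ± 0.25 (SE, n = 3 against 3, limma adjusted p = 0.00125). All 9 genes differed in the same direction on day 0.

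**Figure D3:**
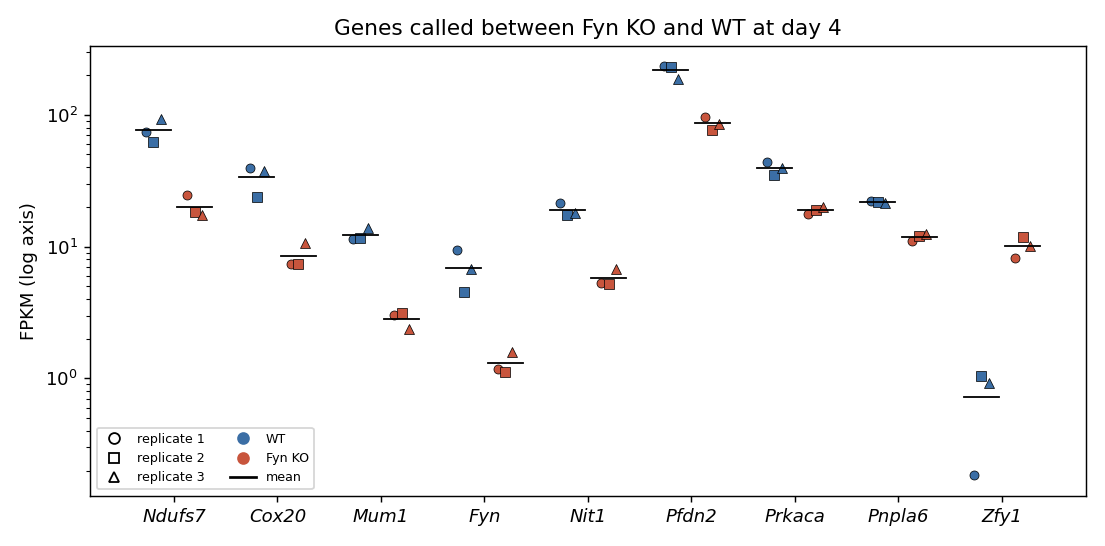
FPKM (vertical axis, logarithmic) of the 9 genes that passed the test at day 4 (horizontal axis) in each WT (blue) and Fyn KO (red) library; symbol shape marks the replicate number and lines are the mean of 3 libraries. For each of the 9 genes the genotypes do not overlap, and Zfy1 is the one that lies higher in the KO.

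On day 0, 21 genes passed the test (0.171%), 5 higher (0.0408%) and 16 lower (0.131%) in the KO, and 4 of them also passed it on day 4, namely Mum1, Pfdn2, Nit1 and Zfy1. The KO effect on day 4 minus that on day 0 passed the test for 0 genes in limma (0%), with 537 at an unadjusted p below 0.05 (4.38%). No other tool was run.

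Relatives and partners of Fyn did not pass the test. Of 11 genes tested among Src family kinases and their regulators, Fyn was the only call, and the median difference was -0.10 beside -0.03 over all genes. Src was at 7.74, 8.62 and 12.6 FPKM in WT and 9.47, 7.56 and 11.5 FPKM in the KO. Yes1 was at 8.81, 9.91 and 10.4 FPKM in WT and 9.87, 10.4 and 9.59 FPKM in the KO, so neither of these broadly expressed kinases was separated by genotype. Lyn was at 0.829, 1.80 and 2.19 FPKM in WT and 0.406, 0.641 and 1.14 FPKM in the KO (limma adjusted p = 0.488). Csk, the kinase that restrains the family, was at 20.9 to 24.6 FPKM in WT and 15.5 to 22.6 FPKM in the KO. Among 14 tested substrates and partners none passed, and Khdrbs1, an RNA-binding Src substrate and the most abundant of them, was at 50.4 to 66.5 FPKM in WT and 49.7 to 58.4 FPKM in the KO.

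Markers of the pluripotent state did not pass the test. Of 24 naive pluripotency genes none was called, differences ran from -1.02 to 0.91, and their median difference was 0.17 on day 4, or -0.17 without WT library 1. Nanog, a core pluripotency factor, was at 73.3, 173 and 112 FPKM in WT and 67.6, 108 and 107 FPKM in the KO. Zfp42, a marker of the naive state, was at 46.2, 177 and 80.5 FPKM in WT and 54.0, 117 and 50.8 FPKM in the KO. Dppa5a, the most abundant naive gene, was lowest in WT library 1, at 338 FPKM, and between 969 and 1355 FPKM in the other 5 libraries. Pou5f1, which encodes Oct4, was at 269, 309 and 399 FPKM in WT and 374, 325 and 313 FPKM in the KO, a difference of 0.07 ± 0.14 (SE, n = 3 against 3, limma adjusted p = 0.900). Of 15 core pluripotency genes 11 were higher in the KO, with a median difference of 0.29, or 0.08 without WT library 1. Of the 15, 1 was higher in all KO libraries (6.67% beside 6.54% of all genes), namely Utf1, a chromatin factor of the pluripotent state, at 71.6, 147 and 269 FPKM against 307, 387 and 402 FPKM. From day 0 to day 4, 19 of the 24 naive genes fell in WT and 14 in the KO (limma adjusted p below 0.05, beside 10.3% of all genes in WT and 7.56% in the KO), with median changes of -2.01 and -1.88.

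Formative and primed epiblast genes lay on the higher side in the KO. Their 16 tested members had a median difference of 0.55, or 0.30 without WT library 1, and none passed. Fgf5, the standard marker of this state, was at 7.22, 16.6 and 17.3 FPKM in WT and 37.8, 16.7 and 34.2 FPKM in the KO, a difference of 1.07 ± 0.33 (SE, n = 3 against 3, limma adjusted p = 0.235). The groups overlapped through KO library 2, and without WT library 1 the difference was 0.69. The list median was 0.26 on day 0. Pou3f1, an epiblast POU factor, was at 16, 12.1 and 23.9 FPKM in WT and 42.8, 27.4 and 28.9 FPKM in the KO. Otx2, a homeobox factor of epiblast and anterior neural tissue, was at 61.3, 79.7 and 80.8 FPKM in WT and 86.7, 110 and 137 FPKM in the KO. Dnmt3b, a DNA methyltransferase and the most abundant member, overlapped, at 72.4 to 258 FPKM in WT and 146 to 237 FPKM in the KO. Etv4, an ERK target, was lower in all 3 KO libraries, at 2.50, 5.59 and 4.73 FPKM in WT and 2.36, 0.528 and 0.601 FPKM in the KO.

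Neural progenitor genes lay on the lower side in the KO, with the highest values in WT library 1. Of 16 tested members 15 were lower in the KO, with a median difference of -1.06, and none passed the test. Sox1 was at 47.2, 7.81 and 11.6 FPKM in WT and 0.990, 1.27 and 7.08 FPKM in the KO. Every KO value was below every WT value, and the difference was -2.40 ± 0.62 (SE, n = 3 against 3, limma adjusted p = 0.156). Sox1 lies on chromosome 8, and with the chromosome medians removed its difference was -1.98. Pax6, a transcription factor of neural progenitors and the eye, was at 26.8, 3.71 and 6.77 FPKM in WT and 0.228, 0.475 and 2.37 FPKM in the KO, a difference of -2.46 ± 0.55 (SE, n = 3 against 3, limma adjusted p = 0.117). Sox21, a progenitor SOX factor, was at 29.5, 3.20 and 1.53 FPKM in WT and 0.171, 0.841 and 0.587 FPKM in the KO. Sox1, Pax6 and Sox21 were the 3 tested members whose groups did not overlap (18.8%, beside 9.99% of all genes). Of the 3, Pax6 entered the test only through the WT day 4 libraries, and Sox1 and Sox21 lie on chromosomes 8 and 14. Vim, an intermediate filament gene and the most abundant member, was at 77.5, 27.3 and 42.5 FPKM in WT and 22.5, 16.1 and 29.7 FPKM in the KO. Nes, which encodes the filament protein nestin, showed no such order, at 5.28, 2.68 and 9.14 FPKM in WT and 8.19, 2.31 and 10.2 FPKM in the KO.

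The mean log2(FPKM + 1) of the neural progenitor list was 4.69 in WT library 1, 2.53 and 3.11 in WT libraries 2 and 3, and 2.04, 2.04 and 2.84 in the KO libraries. KO library 3 thus lay between WT libraries 2 and 3. Without WT library 1 the median difference of the list was -0.53. From day 0 to day 4, 11 of the 16 genes rose in WT and 3 in the KO (limma adjusted p below 0.05, beside 15.5% of all genes in WT and 11.8% in the KO), with median changes of 2.04 and 0.92. On day 0 the median KO minus WT difference of the list was 0.03. Fabp7, a radial glia gene that missed the filter, was at 47.4 FPKM in WT library 1, 7.49 FPKM in WT library 3 and at most 0.765 FPKM elsewhere on day 4. Hes5, a Notch-dependent progenitor gene that also missed it, was at 12.4 FPKM in WT library 1 and at most 1.54 FPKM in the other 5 libraries.

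**Figure D4:**
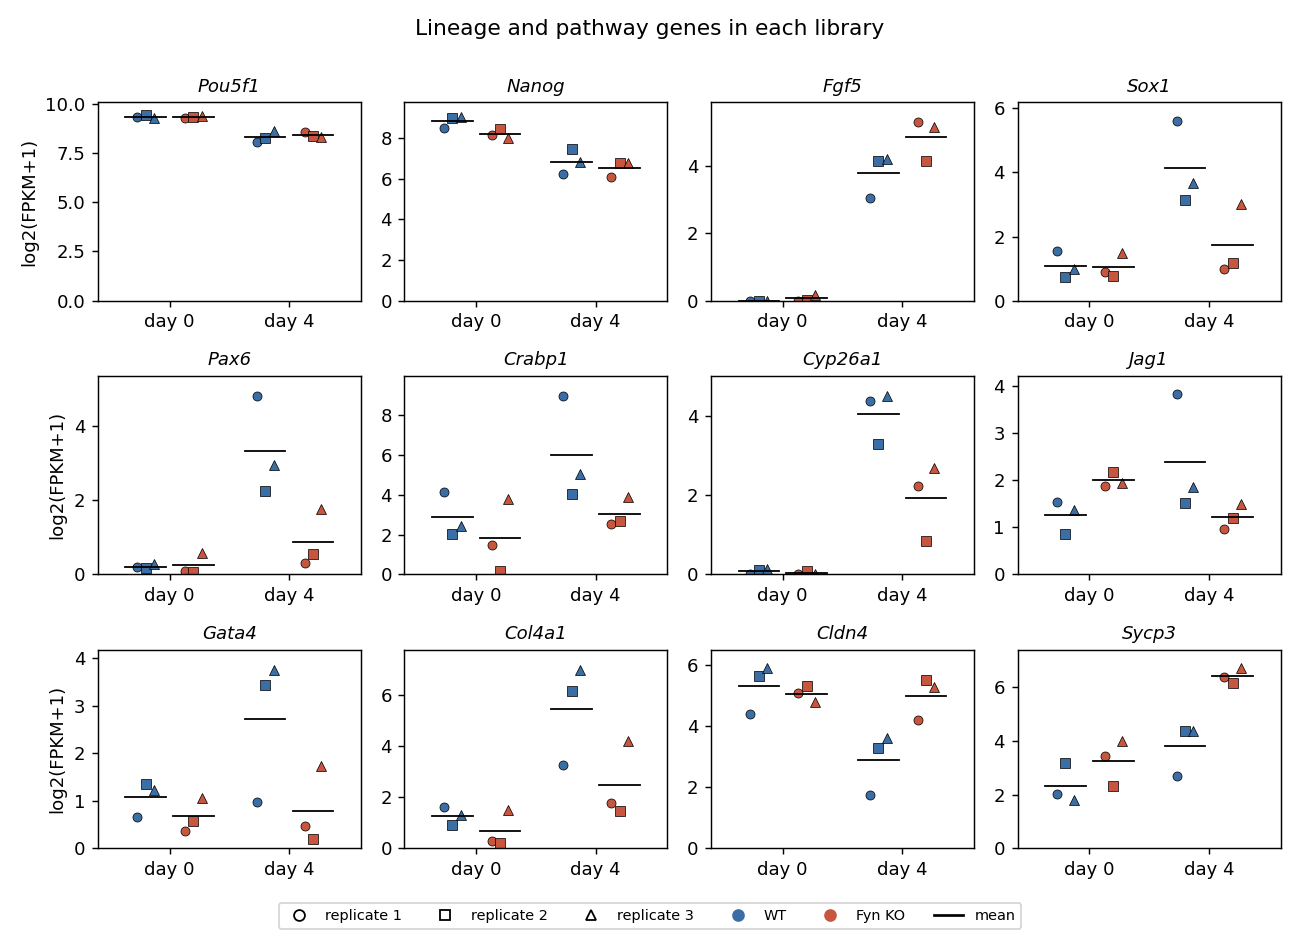
Log2(FPKM + 1) (vertical axes) of 12 lineage and pathway genes on day 0 and day 4 in each WT (blue) and Fyn KO (red) library; symbol shape marks the replicate number and lines are the mean of 3 libraries. Pou5f1 and Nanog overlap between genotypes on day 4, Sox1, Pax6, Crabp1, Cyp26a1 and Jag1 are lower in all KO libraries with WT library 1 at or near the top, Gata4 and Col4a1 are high in WT libraries 2 and 3, and Cldn4 and Sycp3 are higher in all KO libraries.

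The lists of midbrain and hindbrain genes and of neuronal genes had medians below 0, while the 4 tested forebrain and eye field genes had a median of 0.03. Of 9 tested midbrain and hindbrain genes 4 were lower and 1, Pax8, higher in all KO libraries, which is 44.4% and 11.1% beside 9.99% and 6.54% of all genes, with a list median of -0.79, and none passed. Of the 4, 2 lie on chromosomes 1, 6, 8 and 14. Irx3 entered the test only through the WT day 4 libraries, and Pax8 only through the KO day 4 libraries. Irx3, a homeobox gene of the neural plate on chromosome 8, was at 43.4, 4.16 and 2.96 FPKM in WT and 1.28, 0.410 and 0.828 FPKM in the KO. Its relative Irx2 was at 5.38, 1.08 and 1.41 FPKM in WT and 0.275, 0.238 and 0.146 FPKM in the KO (limma adjusted p = 0.156). Meis2, a partner of Hox proteins, was at 28.6, 5.09 and 3.05 FPKM in WT and 0.507, 0.492 and 1.88 FPKM in the KO. Gbx2, a hindbrain boundary gene and the most abundant member, overlapped, at 4.35 to 13 FPKM in WT and 3.30 to 5.66 FPKM in the KO. Of 14 tested neuronal genes none passed, and 2 were lower and none higher in all KO libraries (14.3% beside 9.99% of all genes lower). The median was -0.48, or -0.22 without WT library 1. Tubb3, a neuronal tubulin, was at 44.6, 24.9 and 27.4 FPKM in WT and 16.6, 36.6 and 17.9 FPKM in the KO, and Stmn2, a neuronal microtubule regulator and the most abundant member, at 23.4 to 49.0 FPKM in WT and 24.2 to 29.2 FPKM in the KO. Ebf1, an early neuronal factor, was at 7.42, 1.13 and 4.73 FPKM in WT and 1.00, 0.456 and 0.933 FPKM in the KO.

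Retinoic acid pathway genes had a median difference of -0.41 over 15 tested members, of which 4 were lower and 1 higher in all KO libraries (26.7% and 6.67% beside 9.99% and 6.54% of all genes). Among the lower ones, 2 lie on chromosomes 1, 6, 8 and 14, and 1, Cyp26a1, entered the test only through the WT day 4 libraries. Cyp26a1, the enzyme that breaks down retinoic acid and is itself induced by it, was at 19.9, 8.95 and 21.8 FPKM in WT and 3.75, 0.789 and 5.51 FPKM in the KO. The difference was -2.14 ± 0.42 (SE, n = 3 against 3, limma adjusted p = 0.0902), and with the replicate number as a block it passed the test (limma adjusted p = 0.0267). Crabp1, a retinoic acid binding protein and the most abundant member, was at 502, 15.8 and 32.0 FPKM in WT and 4.89, 5.45 and 14.1 FPKM in the KO.

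Notch pathway genes did not pass the test. Of 32 tested members 6 were lower and 1 was higher in all KO libraries (18.8% and 3.12% beside 9.99% and 6.54% of all genes), and the median difference was -0.08. Of the 6, 1 entered the test only through the WT day 4 libraries. The mean log2(FPKM + 1) of the list was 3.13, 2.74 and 3.01 in WT and 2.51, 2.85 and 3.05 in the KO, so the groups overlapped. Jag1, a Notch ligand, was at 13.2, 1.85 and 2.61 FPKM in WT and 0.966, 1.3 and 1.80 FPKM in the KO, a difference of -1.17 ± 0.47 (SE, n = 3 against 3, limma adjusted p = 0.346). Without WT library 1 it was -0.46. Dll1, the ligand of neurogenic cells, was at 7.63, 1.6 and 5.53 FPKM in WT and 0.737, 1.33 and 2.52 FPKM in the KO. Among the processing enzymes, Ncstn, a gamma-secretase subunit on chromosome 1, was at 26.8, 23.0 and 19.6 FPKM in WT and 12.2, 15.3 and 15.1 FPKM in the KO, and Adam10, the sheddase that cuts Notch, was at 12.4, 11.9 and 11.3 FPKM in WT and 7.16, 8.14 and 9.43 FPKM in the KO. Psenen, another secretase subunit and the most abundant member, overlapped, at 63.8 to 83.5 FPKM in WT and 55.7 to 77.8 FPKM in the KO. Rbpj, the DNA-binding effector of the pathway, was higher in all KO libraries, at 37.3, 53.5 and 38.8 FPKM against 25.3, 37.2 and 32.3 FPKM in WT. Of the targets, Hes1 was at 22.9, 21.7 and 18.1 FPKM in WT and 9.77, 15.6 and 16.1 FPKM in the KO. Hey1 was at 1.80, 0.875 and 1.11 FPKM in WT and 0.959, 1.28 and 1.66 FPKM in the KO, a difference of 0.03 ± 0.22 (SE, n = 3 against 3, limma adjusted p = 0.974).

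Genes of the Wnt, the BMP and TGF-beta and the FGF and ERK pathways had medians of -0.07, -0.13 and 0.01, and none passed the test. In the Wnt list 5 of 31 tested members were lower in all KO libraries (16.1% beside 9.99% of all genes) and none higher. Sfrp1, a secreted Wnt antagonist on chromosome 8, was at 152, 20 and 12 FPKM in WT and 1.29, 1.98 and 7.94 FPKM in the KO, a difference of -3.14 (limma adjusted p = 0.163), or -2.07 without WT library 1. Tcf7l2, a Wnt effector, was at 6.39, 5.79 and 4.97 FPKM in WT and 1.49, 3.60 and 2.67 FPKM in the KO, and Ccnd1, a cyclin and Wnt target, at 41.2, 38.9 and 32.4 FPKM and 28.7, 22.2 and 17.7 FPKM. Ctnnb1, which encodes beta-catenin, was at 224 to 309 FPKM in WT and 223 to 244 FPKM in the KO. In the BMP and TGF-beta list 5 of 30 were lower and 1 higher in all KO libraries (16.7% and 3.33% beside 9.99% and 6.54%). Id2 and Id1 are targets of BMP signals. Id2 was at 82.1, 10.2 and 15.6 FPKM in WT and 2.73, 1.59 and 7.21 FPKM in the KO, and Id1 at 19.3, 9.16 and 7.89 FPKM and 3.61, 3.54 and 3.41 FPKM. Skil, a TGF-beta repressor, was higher in all KO libraries, at 14, 26.0 and 32.9 FPKM in WT and 51.9, 41.9 and 46.5 FPKM in the KO. Gdf3, a TGF-beta family ligand and the most abundant member, overlapped, at 23.5 to 41.5 FPKM in WT and 22.9 to 34.1 FPKM in the KO.

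In the FGF and ERK list 3 of 26 tested members were lower in all KO libraries, which at 11.5% is near the 9.99% of all genes. Flrt3, an adhesion protein of the FGF pathway, was at 8.29, 5.01 and 9.83 FPKM in WT and 0.291, 0.601 and 2.64 FPKM in the KO, a difference of -2.11 ± 0.47 (SE, n = 3 against 3, limma adjusted p = 0.117). Fgfr1, a receptor on chromosome 8, was at 62.8, 19.06 and 24.0 FPKM in WT and 11.7, 13.5 and 21.4 FPKM in the KO. Etv5, the most abundant member, was at 25 to 93.0 FPKM in WT and 72.3 to 109 FPKM in the KO. Among 30 tested axon guidance and adhesion genes 3 were lower in all KO libraries, which is 10% beside 9.99% of all genes, with a median of -0.29, or -0.05 without WT library 1. Of the 3, 1 entered the test only through the WT day 4 libraries. Efnb1, an ephrin, was at 17.9, 5.45 and 7.02 FPKM in WT and 0.807, 1.85 and 3.48 FPKM in the KO (limma adjusted p = 0.115). Epha4, an ephrin receptor and the most abundant member, was at 25.8, 5.05 and 4.63 FPKM in WT and 4.00, 4.46 and 3.75 FPKM in the KO.

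Endoderm genes had the lowest median of all lists, and here WT libraries 2 and 3 were the high ones. Of 15 tested members 13 were lower in the KO, with a median of -1.49, and none passed. Col4a1, a basement membrane collagen on chromosome 8, was at 8.69, 71.1 and 128 FPKM in WT and 2.40, 1.78 and 17.8 FPKM in the KO. Gata4, an endoderm transcription factor, was at 0.961, 9.78 and 12.5 FPKM in WT and 0.373, 0.136 and 2.30 FPKM in the KO. Cubn, an endocytic receptor of visceral endoderm, was at 1.90, 32.8 and 35.4 FPKM in WT and 0.871, 0.288 and 6.63 FPKM in the KO. The groups of these 3 genes overlapped through WT library 1 and KO library 3. Sox17, which missed the filter, was at 0.210, 4.76 and 4.98 FPKM in WT and 0.0140, 0.0495 and 0.711 FPKM in the KO. Foxa2, an endoderm and floor plate factor, was at 1.2, 1.70 and 3.11 FPKM in WT and 0.543, 0.486 and 0.669 FPKM in the KO. It reached 1 FPKM in the 3 WT day 4 libraries alone. It was also the 1 tested member whose groups did not overlap, which is 6.67% of the list beside 9.99% of all genes. Apoe, the most abundant member, was not lower, at 229 to 365 FPKM in WT and 176 to 529 FPKM in the KO. Without WT library 3 the median of the list was -0.85, and without WT library 1 it was -2.36. Gata4 and Cubn then passed the test with WT library 1 of day 4 left out (limma adjusted p = 0.0471 for each), but not with WT library 1 of both days left out (limma adjusted p = 0.0573 and 0.0724). Of 8 tested mesoderm genes, which include Gata4, 7 were lower in the KO and none passed, with differences down to -1.93. The other 1 was T, which encodes Brachyury and was at or below 0.273 FPKM in all 6 libraries on day 4.

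Surface ectoderm and keratin genes lay on the higher side in the KO. The separate list of cadherins and epithelial regulators did not, with a median of 0.09 over 19 tested genes, 9 below and 10 above 0. Of 13 tested surface ectoderm and keratin genes 4 were higher in all KO libraries and none lower, which is 30.8% beside 6.54% of all genes, and the median difference was 1.01. Cldn4, a tight junction protein, was at 2.34, 8.84 and 11.1 FPKM in WT and 17.3, 44.7 and 38.4 FPKM in the KO, a difference of 2.12 ± 0.51 (SE, n = 3 against 3, limma adjusted p = 0.139). Esrp1, an epithelial splicing regulator, was at 2.17, 5.37 and 12.4 FPKM in WT and 17.6, 26.6 and 18.3 FPKM in the KO. Grhl2, an epithelial transcription factor, was at 1.43, 4.80 and 4.71 FPKM in WT and 7.69, 14.1 and 6.33 FPKM in the KO. Krt7, a simple epithelial keratin, was at 0, 1.62 and 1.35 FPKM in WT and 3.42, 2.84 and 3.86 FPKM in the KO. Cdh1, E-cadherin, the most abundant member, was at 25.7, 73.5 and 104 FPKM in WT and 100, 109 and 103 FPKM in the KO. Cldn3, another claudin, overlapped at 0.957, 1.21 and 8.86 FPKM in WT and 5.59, 9.58 and 27.5 FPKM in the KO, and passed the test with the replicate number as a block (limma adjusted p = 0.0267) but not without it (limma adjusted p = 0.251). WT library 1 was the lowest of the 6 for every gene named here, and without it the list median was 0.36. On day 0 the list median was 0.22.

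Germline genes were led by Sycp3. This synaptonemal complex gene was at 5.45, 19.9 and 19.6 FPKM in WT and 82.5, 71.7 and 106 FPKM in the KO, a difference of 2.62 ± 0.52 (SE, n = 3 against 3, limma adjusted p = 0.0908), and on day 0 the difference was 0.90. Of 17 tested germline and totipotent-like genes 3 were higher in all KO libraries (17.6% beside 6.54% of all genes), the others being Tex101, a germ cell surface protein gene, and Eif1a, a translation initiation gene. Tex101 was at 0.0613, 1.13 and 0.186 FPKM in WT and 12.5, 1.24 and 1.57 FPKM in the KO, so KO library 1 stood apart. The list median was 0.24 on day 4 and -0.79 on day 0, when 4 of the 17 were lower in all KO libraries, beside 10.9% of all genes. Rhox5, the most abundant member, overlapped widely, at 8.56 to 130 FPKM in WT and 18.8 to 90.3 FPKM in the KO.

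Cell cycle genes differed in small steps. Of 28 tested S phase genes 6 were lower and 1 higher in all KO libraries (21.4% and 3.57% beside 9.99% and 6.54% of all genes), with a median of -0.15. Mcm2, a subunit of the replicative helicase, was at 117, 144 and 154 FPKM in WT and 92.4, 97.0 and 92.1 FPKM in the KO, a difference of -0.54 ± 0.14 (SE, n = 3 against 3, limma adjusted p = 0.156). Mcm5 was at 130, 88.4 and 112 FPKM in WT and 79.1, 71.9 and 71.3 FPKM in the KO. Of the 6 lower genes, 5 lie on chromosomes 1, 6 and 8, namely Mcm3, Mcm6, Mcm2, Mcm5 and Gins2, and Cdc6 lies on chromosome 11. With the chromosome medians removed, Mcm2 differed by -0.27 and Mcm5 by -0.14. Pcna, the most abundant member, overlapped, at 240 to 335 FPKM in WT and 224 to 273 FPKM in the KO. Of 30 tested G2/M genes 7 were higher and none lower in all KO libraries, which is 23.3% beside 6.54%, with a median of 0.13. Their median on day 0 was 0.15, and 11 of the 30 were then higher in all KO libraries, beside 10.5% of all genes. Hmmr, a spindle protein, was at 35.4, 46.4 and 52.2 FPKM in WT and 71.6, 61.6 and 66.7 FPKM in the KO, and Ube2c, a ubiquitin enzyme of mitotic exit and the most abundant member, at 180, 203 and 231 FPKM and 292, 252 and 254 FPKM. On day 4 the median was 0.04 without WT library 1. Of 31 spindle checkpoint and mitotic exit genes none passed and the median was 0.06. Mapre1, which encodes the microtubule end-binding protein EB1, was at 30.9, 21.8 and 23.4 FPKM in WT and 27.3, 22.1 and 22.1 FPKM in the KO, a difference of -0.08 ± 0.15 (SE, n = 3 against 3, limma adjusted p = 0.895). Anapc5, a subunit of the anaphase-promoting complex, was at 83.8 to 91.3 FPKM in WT and 85.5 to 93.0 FPKM in the KO.

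Among 29 tested chromatin genes 7 were lower and 1 higher in all KO libraries (24.1% and 3.45% beside 9.99% and 6.54% of all genes), with a median of -0.20. Ezh2, the methyltransferase of the Polycomb complex, was at 54.8, 50.1 and 54.8 FPKM in WT and 38.7, 31.7 and 34.5 FPKM in the KO, a difference of -0.60 ± 0.14 (SE, n = 3 against 3, limma adjusted p = 0.123). It lies on chromosome 6, where the median difference was -0.28. Ring1, a Polycomb ubiquitin ligase, was at 8.83, 7.12 and 6.37 FPKM in WT and 4.40, 4.2 and 5.14 FPKM in the KO, and Bmi1, its partner, at 8.64, 5.43 and 4.24 FPKM and 3.79, 2.71 and 3.18 FPKM. Uhrf1, a DNA methylation cofactor and the most abundant member, overlapped, at 66.9 to 85.1 FPKM in WT and 65.6 to 76.9 FPKM in the KO. Among 23 imprinted genes 5 were lower and 1 higher in all KO libraries (21.7% and 4.35%), with a median of -0.25, or -0.11 without WT library 1. Mest, a paternally expressed gene on chromosome 6, was at 249, 71.6 and 147 FPKM in WT and 28.4, 37.8 and 42.2 FPKM in the KO (limma adjusted p = 0.235), and Gnas, the most abundant, at 155 to 324 FPKM and 144 to 311 FPKM. Cytosolic ribosomal protein genes had 9 of 36 members higher in all KO libraries (25% beside 6.54% of all genes) with a median of 0.13, and 0.02 after quantile normalization.

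**Figure D5:**
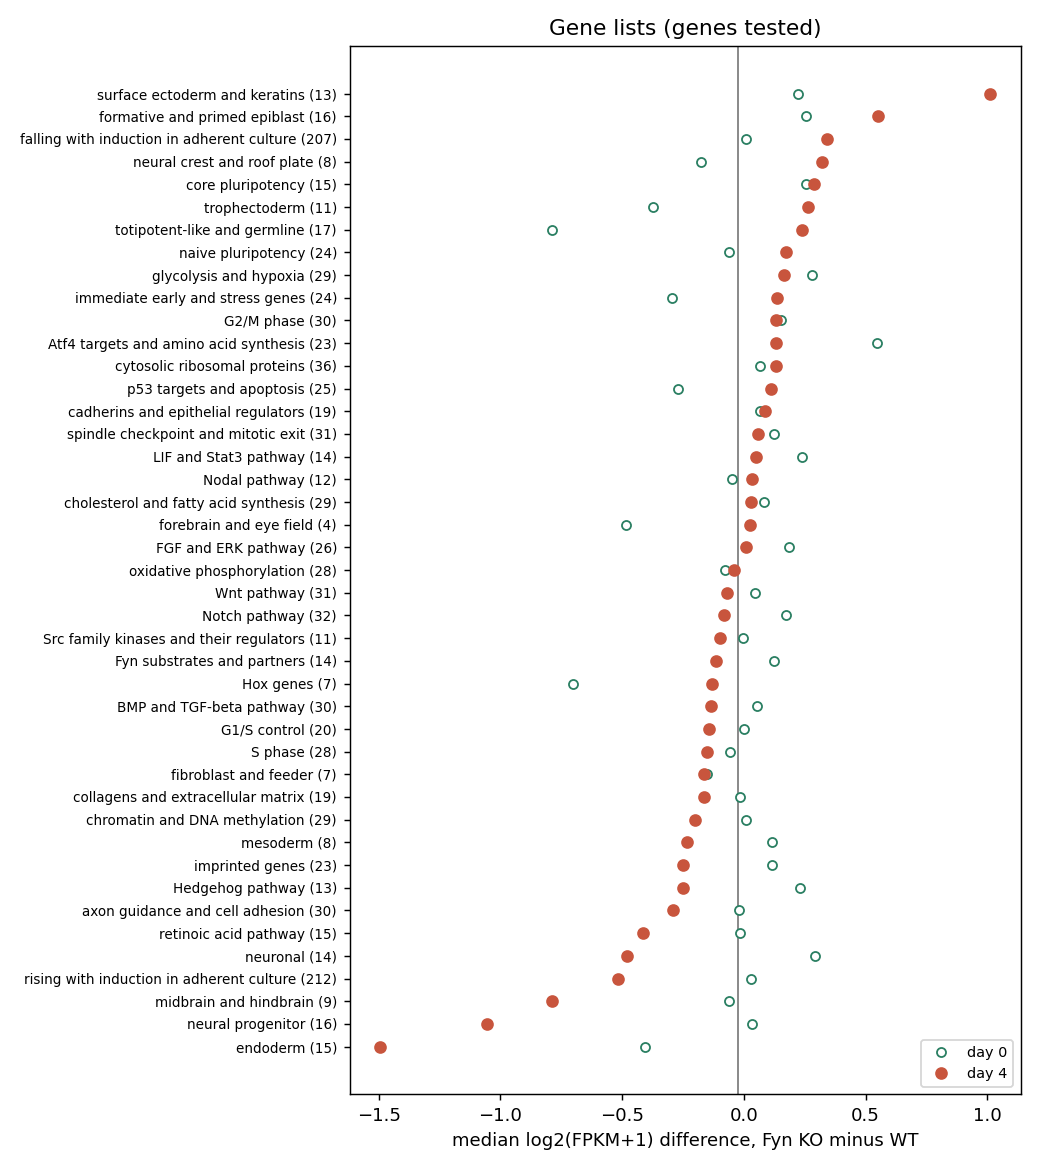
Median log2(FPKM + 1) difference, Fyn KO minus WT (horizontal axis), of each gene list (vertical axis, with the number of genes tested) on day 4 (filled) and day 0 (open); the grey line is the median of all tested genes on day 4. Endoderm and neural progenitor lists lie lowest on day 4, at -1.49 and -1.06, and the surface ectoderm list highest, at 1.01, while their day 0 medians lie between -0.41 and 0.22.

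The comparison was then set against genes ordered by time in the separate adherent culture, which shares no sample with the E14 libraries. The authors' methods name R1 embryonic stem cells for that culture, a different line from E14. Genes were taken as rising or falling with induction when their mean log2(FPKM + 1) at 80.5, 92.5 and 101.5 h differed by at least 2 from that at 0, 2.5 and 8.5 h. Of 270 rising genes 212 were tested, and 83.0% of them were lower in the KO on day 4, beside 53.6% of all genes, with a median of -0.52. None passed the test. Of the 212, 28 were lower and 2 higher in all KO libraries (13.2% and 0.943%, beside 9.99% and 6.54% of all genes). Of the 28, 14 lie on chromosomes 1, 6, 8 and 14, and 5 entered the test only through the WT day 4 libraries. Of 240 falling genes 207 were tested, and 73.9% were higher in the KO, beside 46.3% of all genes, with a median of 0.34. Of these, 26 were higher and 4 lower in all KO libraries (12.6% and 1.93%, beside 6.54% and 9.99%). The mean log2(FPKM + 1) of the rising genes was 3.97, 2.60 and 3.13 in WT and 2.50, 2.54 and 3.07 in the KO libraries. That of the falling genes was 2.31, 3.27 and 3.07 in WT and 3.03, 3.57 and 3.05 in the KO. WT library 1 had the highest mean of the rising and the lowest of the falling genes, and the other WT libraries overlapped the KO libraries. Without WT library 1 the medians were -0.15 for the rising and 0.03 for the falling genes. Day 0 medians were 0.03 and 0.01.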

How the data were processed

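Per the submitters' processing notes, the E14 reads were handled with TopHat2 2.0.8b and Cufflinks 2.1.1 on mm10. Libraries were made with the Nextera XT kit. The authors deposited FPKM values per gene, normalized for transcript length and mapped reads, without counts. The adherent time course was deposited as FPKM too and served only to set the genes ordered by time.

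Differences were fitted with limma 3.58.1 in R 4.3.3 on log2(FPKM + 1), as means of the 4 groups over the 12 E14 libraries (8 residual degrees of freedom, empirical Bayes with a trend), with Benjamini-Hochberg adjustment over the 12257 genes tested. The fit was tested on simulated data with 200 changed genes. It recovered 57.5% of them at a log2 change of 1, 88% at 2 and 96% at 3. The simulated errors were normal and independent, with no WT library standing apart, so recovery in the real libraries may differ. Residuals of same-numbered KO and WT libraries correlated at 0.14, 0.26 and 0.24 on day 4 and at 0.06, 0.34 and -0.11 on day 0. The number was therefore also fitted as a block within each day. Same-numbered libraries of different days were treated as independent, so comparisons between the days take no account of a link between them. Groups were taken from the genotype and induction time labels. Sequences and positions came from RefSeq tables on GRCm38.p6.

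The comparison, the 41 gene lists and the rule for named genes were chosen with earlier results of these data known, and the genes picked for groups that do not overlap, the chromosome grouping and the neighbors were chosen after their values were seen. The rule named a fixed set of markers and cycle genes, all genes that passed the test and, in the lists described, the member of highest mean FPKM. No p-value was computed for a list. Alternatives were the pseudocount, the filter, quantile and median-ratio scaling, no trend, the replicate block, the libraries of that day alone and leaving out each library; removal of chromosome medians and leaving out WT libraries 1 or 3 of both days were added after seeing the data. No columns were left unassigned. The values of 1 list member are not reported here.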

Additional observations from a re-analysis of the deposited data

Results flagged for a closer look

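The KO minus WT difference of Jag1, a Notch ligand, had opposite signs on day 0 and day 4. Jag1 was picked from the named genes by that trait, with groups that do not overlap on either day. The sign change and its unadjusted p therefore follow in part from the selection. The KO minus WT difference was 0.74 on day 0, when every KO library was above every WT library, and -1.17 on day 4, when every KO library was below every WT library. The difference of the differences was -1.91 ± 0.67 (SE), with an unadjusted p of 0.0148 and a limma adjusted p of 0.997 over all genes, so it did not pass the test. On day 4 WT library 1 was at 13.2 FPKM and the other WT libraries at 1.85 and 2.61 FPKM. Without WT library 1 of day 4 the day 4 difference was -0.46 and the difference of the differences -1.20 ± 0.34 (SE, limma adjusted p = 0.999).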

How the results depend on the processing

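The count of genes called on day 4 was 9. It was 24 without the filter on low values, 18 with a mean FPKM of at least 5, 17 after quantile normalization, 8 with the replicate number as a block, 6 with the chromosome medians removed (all but the Y chromosome) and 0 with only the 6 day 4 libraries. Leaving out each day 4 library in turn gave 5 (without KO library 1) to 14 (without WT library 3), and leaving out each day 0 library 7 to 12. The single gene called higher became 0 with a pseudocount of 0.1, 6 without the filter, 2 after quantile normalization, without the variance trend and with the block, and 0 with only the day 4 libraries, with 1 to 8 when a day 4 library was left out. The 8 called lower became 18 without the filter, 17 with the mean FPKM minimum, 15 after quantile normalization, 6 with the block, 5 with the chromosome medians removed and 0 with only the day 4 libraries, with 4 to 10 when a day 4 library was left out and up to 11 when a day 0 library was. On day 0 the 21 calls became 35 without the filter, 13 with the mean FPKM minimum, 17 with the block and 2 with only the 6 day 0 libraries. They ranged from 4 without WT library 3 of both days to 220 without WT library 1 of both days, and were 161 without WT library 1 of day 0. The change of the effect between days gave 1 call without the filter, 0 with the block and 0 to 5 when a library was left out, 5 being without WT library 1 of day 0. With only the 6 day 4 libraries fewer samples estimate the spread; the causes of the other changes were not tested. With the block, Fyn, Prkaca and Pnpla6 were no longer called and Cyp26a1 and Cldn3 were, and no other day 4 call changed. Mum1, Pfdn2, Nit1 and Ndufs7 were called in 16 of 17 alternatives each, Zfy1 in 14 of 16, Prkaca in 11 of 17, Cox20 in 9 of 17, Fyn in 7 of 16 and Pnpla6 in 6 of 17, the day 0 leave-outs not included; in those 6, Cox20 was called in 4, Pnpla6 in 5 and the other 7 genes in all. Single genes that were not called changed sign: with the chromosome medians removed Zfp42 was at 0.072, Gdf3 at 0.0041 and Hnrnpu at 0.17, and Src was at 0.048 after quantile normalization and 0.029 after median-ratio scaling. When a library was left out, Hey1 ranged from -0.094 to 0.20, Mapre1 from -0.17 to 0.069, Pou5f1 from -0.060 to 0.22, Nanog from -0.59 to 0.024, Zfp42 from -0.79 to 0.16, Nes from -0.19 to 0.72, Khdrbs1 from -0.14 to 0.062, Apoe from -0.11 to 0.69, Rhox5 from -0.86 to 1.03, Src from -0.14 to 0.18 and Yes1 from -0.026 to 0.081. FPKM values carry no depth, and 3 libraries a group of 1 clone limit the precision.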

Other observations

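No member of the energy metabolism, stress and further lineage lists passed the test on day 4, and Ndufs7 and Cox20, the called genes of the respiratory chain, are not in these lists. Of 28 tested oxidative phosphorylation genes 5 were lower and 2 higher in all KO libraries (17.9% and 7.14% beside 9.99% and 6.54% of all genes), with a median difference of -0.04, and 4 of the 5 lower ones lie on chromosomes 1, 6, 8 and 14. Sdhc, a membrane anchor of succinate dehydrogenase on chromosome 1, was at 73.2, 72.0 and 58.9 FPKM in WT and 40.1, 46.1 and 44.1 FPKM in the KO, a difference of -0.63 (limma adjusted p = 0.143). The medians were 0.17 over 29 glycolysis and hypoxia genes, 0.03 over 29 cholesterol and fatty acid genes, 0.13 over 23 Atf4 targets, 0.14 over 24 immediate early and stress genes, 0.11 over 25 p53 targets and -0.14 over 20 genes of G1/S control. Hedgehog pathway genes had a median of -0.25 over 13 tested members, or 0.0051 without WT library 1. Medians of the Nodal (0.03, 12 genes), LIF and Stat3 (0.05, 14 genes) and cadherin and epithelial regulator (0.09, 19 genes) lists were near that of all genes.

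Lists of other lineages were small after the filter. The medians were 0.32 over 8 neural crest genes, 0.26 over 11 trophectoderm genes, -0.24 over 8 mesoderm genes, 0.03 over 4 forebrain genes, -0.13 over 7 Hox genes, -0.16 over 7 fibroblast genes and -0.16 over 19 extracellular matrix genes. None of these lists had a member that passed the test. These values are given as a description, and their causes were not tested.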
